A study of Mus musculus with 12 samples.

Results

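The nuclear-encoded genes of the mitochondrial respiratory chain and ATP synthase were examined in Ocy454 osteocytes. Members were the protein-coding mouse genes whose symbol in the mm9-era annotation begins with Ndufa, Ndufb, Ndufc, Ndufs, Ndufv, Sdha to Sdhd, Uqcr, Cox4 to Cox8 or Atp5. The rule used names alone and no measured value. It gave 93 Ensembl IDs of the 37583 in the count files, after 2 pseudogenes were set aside (Atp5l-ps1 and Atp5l2, both with 0 counts in every library). Complex I (NADH dehydrogenase) had 43 members, complex II (succinate dehydrogenase) 6, complex III (cytochrome bc1) 8, complex IV (cytochrome c oxidase) 19 and complex V (ATP synthase) 17. By role, 19 were core subunits, 57 were other subunits of the complexes, 8 were isoforms known from particular tissues or from hypoxia, 6 were assembly factors, and 3 (Cox4nb, Atp5s and Atp5sl) carried a matching symbol but are not subunits.

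The respiratory chain passes electrons from NADH and succinate to oxygen across the inner mitochondrial membrane and pumps protons, and ATP synthase uses the proton gradient to make ATP. Each complex except II is built from subunits of both genomes, so nuclear genes have to be expressed beside the mitochondrial ones. Core subunits as counted here are mostly those of the catalytic or redox centres, and the other subunits surround them and are needed for assembly or stability. Uqcrc1, Uqcrc2, Atp5c1, Atp5d and Atp5e were also placed among the core subunits, although they hold no such centre. Cyc1 did not match the symbol rule and was counted with the electron carriers below. Osteocytes, the cells embedded in bone matrix, live at low oxygen and draw on both glycolysis and respiration.

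Ocy454 is a mouse long-bone osteocyte line that carries a temperature-sensitive T antigen. Per the study, 1 single-cell sub-clone was used and was cultured at the temperature that inactivates the antigen. The labels give 14 days of culture for all samples. Control cells (given the genotype original cells in the labels, while the study's methods describe controls of its CRISPR lines as carrying a lentivirus with no guide) and DKO cells (labelled as deleted for HDAC4 and HDAC5, 2 class IIa histone deacetylases) were either left static or agitated on an orbital platform for 3 h, which applies fluid flow shear stress (FFSS), with 3 libraries in each of the 4 groups. Since each genotype was 1 line, an effect of genotype and one of line cannot be told apart, and the labels do not say whether replicates were separate cultures, in which case p-values measure only the spread between these samples.

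Libraries held 17585225 to 19174118 reads assigned to genes, and the members held between 0.888% and 1.02% of them. Hdac5 had 127 to 141 CPM (counts scaled to library size) in control static against 80.1 to 90.7 CPM in DKO static libraries, and 71.1 to 90.1 CPM in control FFSS against 92.3 to 93.2 CPM in DKO FFSS libraries, so it was lower in DKO cells in the static comparison and not under FFSS. The 2 Hdac4 IDs had means of 26.1 and 23.1 CPM in control static against 14.5 and 17.6 CPM in DKO static libraries, and 37.0 and 24.2 CPM against 13.3 and 17.0 CPM under FFSS. The labels do not say which exons were removed. Osteocyte markers (6 genes, with Sost, Phex and Dmp1 the highest in DKO cells and Fgf23 at or near 0) summed to 78.1 to 117 CPM in control static, 62.5 to 184 in control FFSS and 3600 to 4023 in DKO libraries, and chondrocyte markers (5 genes, Col2a1 among them) to 50.9 to 103 CPM in control and 2015 to 2962 CPM in DKO libraries. Not all of these markers were higher in DKO cells, since the osteocyte marker Pdpn had a mean of 28.4 CPM in control static and 5.11 CPM in DKO static libraries, and Acan of the chondrocyte list 5.96 and 4.97 CPM. The haematopoietic sum, nearly all Cd68, was 15.5 to 28.5 CPM in control and 2.80 to 3.45 CPM in DKO libraries, and the skeletal muscle sum, nearly all Acta1 with Myog at 0 throughout, 12.9 to 20.5 CPM in control and 2.03 to 6.48 CPM in DKO libraries. The adipocyte sum was at most 2.53 CPM. Control FFSS libraries varied most, with a biological coefficient of variation of 0.190 against 0.0328 to 0.0446 in the other groups: reads outside annotated genes made up 5.87%, 9.19% and 10.04% of reads in control FFSS replicates 1, 2 and 3, compared with 5.10% to 5.21% in control static, 7.07% to 7.14% in DKO static and 7.93% to 8.55% in DKO FFSS libraries. What part the marker genes or the share outside genes had in the differences below was not tested, beyond a fit with that share as a covariate. Within groups the share varied mostly in control FFSS libraries (SD 2.20, against 0.0363 to 0.323 in the other groups), so that fit rests mainly on these libraries. The share also differed between treatments and genotypes, so the fit cannot separate it from either, and calls gained or lost with it are to be read with this limit. In bulk RNA, fewer cells of a kind and less RNA per cell cannot be told apart.

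Promoters of respiratory chain genes are known for binding sites of NRF1, of the ETS factor GABP, of YY1 and of the estrogen-related receptors (ERR). RefSeq promoters (250 bases before to 50 after the start, GRCm38.p6) were matched by symbol for 73 of the 92 symbols and searched on both strands. The NRF1 motif (GCGCA and GCGC with any 1 base between them) was found for 18 of 73 members (24.7%) against 5.19% of the 27025 symbols in the table (any promoter of a symbol counted), and the ETS motif CCGGAAG for 19 (26% against 9.93%). YY1 (AAGATGG) was found for 10 (13.7% against 7.28%), ERR (AAGGTCA) for 8 (11.0% against 5.38%), and the core of the HIF motif (ACGTG) for 18 (24.7% against 21.8%). These are matches of letters and do not show binding. Unlike the backgrounds used below, the 27025 symbols were not limited to genes that passed the filter on low counts in these cells. For 4 of the members named below, the 250 bases before the start are printed 5′ to 3′ on the gene's strand, with motif matches in capitals. Ndufaf4 (chr4:24897833-24898082, plus strand), the member with the highest fold change under FFSS in control cells, held an NRF1 match. Atp5h (chr11:115419920-115420169, minus strand) and Ndufb2 (chr6:39592315-39592564, plus strand), both among the 3 with the highest fold change of those past the threshold in static DKO cells, held an NRF1 and an ETS match, and an ERR match. Ndufb5 (chr3:32736813-32737062, plus strand), whose fold change in DKO FFSS cells was the highest after those of the low-level Cox8b and Cox4i2, held no match to these letters. The same stretch was also read for Uqcrfs1, Ndufv3, Cox7a2l, Ndufa4 and Cox8b, which are not printed. Among these only Cox8b held a match there, to the HIF core, while Ndufv3 held a HIF core match after the start. No matches overlapped in the 4 printed stretches.
Ndufaf4: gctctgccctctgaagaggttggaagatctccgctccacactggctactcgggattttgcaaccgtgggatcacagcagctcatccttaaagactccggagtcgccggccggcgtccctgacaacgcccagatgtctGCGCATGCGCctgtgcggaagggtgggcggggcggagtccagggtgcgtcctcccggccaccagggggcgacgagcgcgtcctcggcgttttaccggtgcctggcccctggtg
Atp5h: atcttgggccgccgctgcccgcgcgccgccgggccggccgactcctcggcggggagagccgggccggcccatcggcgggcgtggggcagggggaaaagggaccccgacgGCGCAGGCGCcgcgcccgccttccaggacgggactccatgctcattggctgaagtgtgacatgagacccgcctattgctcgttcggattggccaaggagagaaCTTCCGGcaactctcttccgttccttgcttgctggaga
Ndufb2: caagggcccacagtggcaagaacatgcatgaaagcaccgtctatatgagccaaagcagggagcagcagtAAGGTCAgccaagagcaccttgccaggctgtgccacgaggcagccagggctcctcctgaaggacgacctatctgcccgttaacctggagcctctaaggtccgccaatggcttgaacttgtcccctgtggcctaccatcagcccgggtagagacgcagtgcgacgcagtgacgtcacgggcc
Ndufb5: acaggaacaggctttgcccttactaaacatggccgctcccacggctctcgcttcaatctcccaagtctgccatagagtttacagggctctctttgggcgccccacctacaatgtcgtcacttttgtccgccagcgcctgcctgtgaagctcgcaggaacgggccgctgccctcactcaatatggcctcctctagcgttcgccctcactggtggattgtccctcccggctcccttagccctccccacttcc

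Of the 93 members, 89 passed the filter on low counts and were tested among 14904 genes. The 4 removed were Cox8c, a testis-type isoform, and the second of 2 Ndufb8 IDs, both with 0 counts in all 12 libraries (the floor of 3 counts is 0.156 to 0.171 CPM), Cox6b2 with at most 1 count and Cox7b2 with 0 to 7 counts. Per kilobase of transcript, the highest mean levels over all libraries were those of Atp5b (the catalytic beta subunit of ATP synthase, 651 CPM per kb), Cox6a1 (581.5), Cox4i1 (548) and Cox8a (469), which belong to cytochrome c oxidase. The lowest tested were Cox4i2 (1.59 CPM per kb) and Atp5g2 (1.98). The members therefore spanned more than 2 orders of magnitude, with the assembly factors between 5.88 (Sdhaf1) and 17.4 (Ndufaf2) CPM per kb.

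Summed over all members, the levels in control FFSS libraries spread more widely than those of the other groups. The sum was 9521, 9849 and 9864 CPM in control static replicates 1 to 3 and 9674, 9336 and 9602 CPM in DKO static libraries, which overlapped. It was 9803, 8351 and 7941 CPM in control FFSS and 9350, 9828 and 9501 CPM in DKO FFSS libraries. Control FFSS replicate 1 thus lay within the static range, and replicates 2 and 3 lay below every other library. Scaled by library totals alone, the control FFSS sums were 10170, 9432 and 8906 CPM against 9502 to 10000 CPM in control static and 8878 to 9400 CPM in DKO libraries, so replicate 1 was then the highest library and replicate 2 lay above all DKO libraries.

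**Figure D1:**
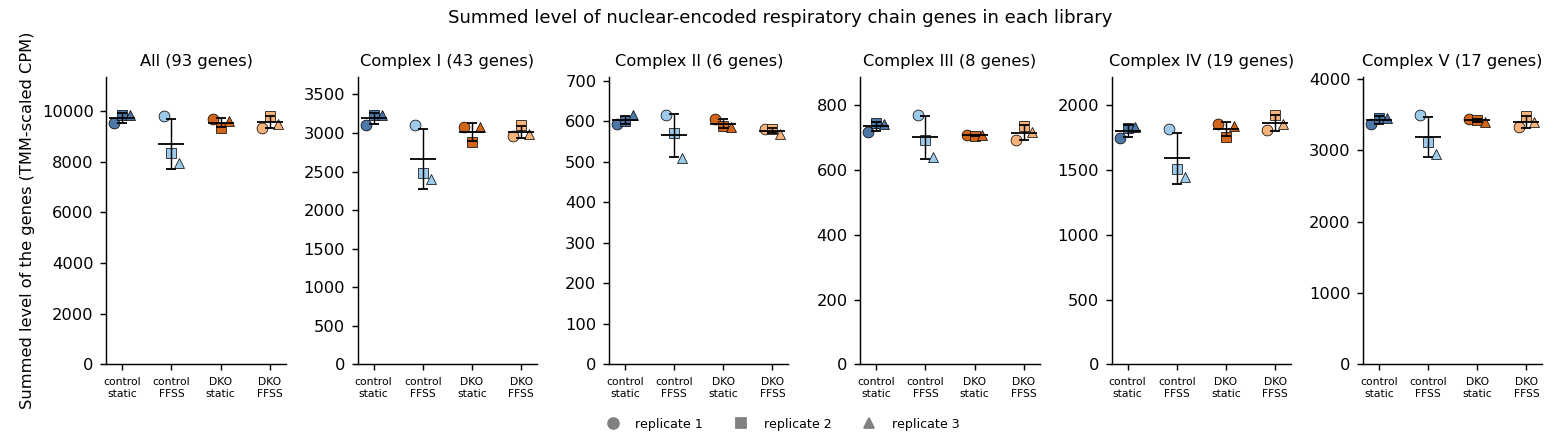
Summed TMM-scaled CPM of all members and of each complex (vertical axes, from 0) in each library of the 4 groups. Points are libraries by replicate number and bars are the mean and SD (n = 3). Control FFSS replicates 2 and 3 are the lowest 2 libraries for all members, and the other groups lie close together.

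The first comparison asked how the genotypes differ without flow. In static DKO cells, 25 members were higher and 20 lower than in control cells at a Benjamini-Hochberg adjusted p under 0.05 (edgeR quasi-likelihood), beside backgrounds of 27% higher and 27.2% lower among all genes tested, and the median log2 fold change of the 89 was 0.04 compared with 0.01 over all genes. Only 1 member, Cox6a2, passed with more than a 2-fold change, against 15.3% of all genes. Scaling by library totals alone gave 19 higher and 28 lower, and the share of reads outside genes as a covariate gave 39 higher and 11 lower.

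The calls were also counted by role. Among core subunits 2 of 19 rose (Atp5a1 and Atp5e) and 9 fell, with a median of −0.07. Among other subunits 21 of 56 rose and 9 fell, with a median of 0.10. Under FFSS the comparison of genotypes had 4 core subunits higher and 6 lower in DKO cells (median −0.12) and 30 other subunits higher and 2 lower (median 0.24). With library totals alone these counts were 1 higher and 12 lower for core subunits (median −0.31) and 14 higher and 13 lower for other subunits (median 0.05), and in static cells 2 and 11 for core and 16 and 13 for other subunits. With the covariate, core subunits had 5 higher and 6 lower in static cells, and other subunits 31 and 3. Across all members, DKO FFSS cells had 36 higher and 9 lower than control FFSS cells (background 27% and 29.6%), with a median of 0.13 against −0.05 over all genes. Scaled by library totals alone, this count was 16 higher and 31 lower, since that scaling moved the median of all genes to −0.25. Relative to the median of all genes, core subunits stood at −0.07 and other subunits at 0.29 (TMM) or 0.30 (library totals). A change of scaling shifts all genes of a library alike, so it could hardly alter these relative values or the order of the 2 roles. Core subunits have longer transcripts (median 1540 bases) than other subunits (669 bases), and over the 89 members the fold change in DKO FFSS cells had a Spearman correlation of −0.39 with transcript length (−0.21 in static cells). The part of length in the difference between roles was not tested, and the difference between the roles itself was not tested.

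The comparisons of genotype in static and in FFSS cells used different libraries. Of the 45 members past the threshold in each, 30 passed in both (66.7% of each list), and all 30 had the same direction, with 21 higher and 9 lower in DKO cells. Over the 89 members the log2 fold changes of the 2 comparisons had a Pearson correlation of 0.71 and a Spearman correlation of 0.77, across genes that share each line. Over all 14904 genes the shares were larger, with 78% of the static and 74.7% of the FFSS list in both, 99.3% of these in the same direction, and correlations of 0.82 (Pearson) and 0.75 (Spearman).

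**Figure D2:**
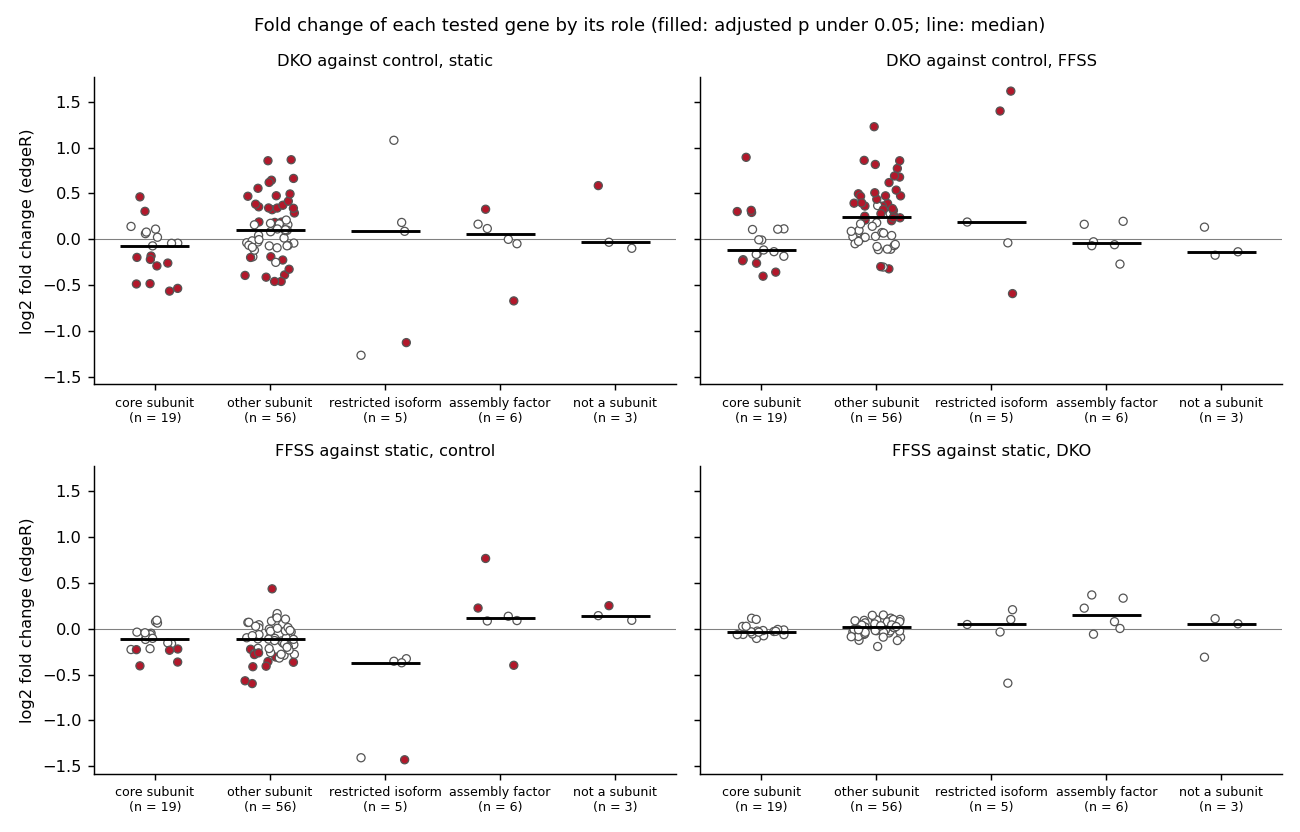
Log2 fold change (vertical axes) of each tested member by role, in 4 comparisons. Filled points passed an adjusted p of 0.05 and lines are medians. In both comparisons of DKO with control cells the filled points of other subunits lie mostly above 0 and those of core subunits mostly below, and no point is filled for FFSS in DKO cells.

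In complex I, which takes electrons from NADH, 16 of 42 tested members were higher and 7 lower in static DKO cells, where 27% and 27.2% of all genes tested were. Ndufb5, a subunit of the membrane arm (mm9 chromosome 3, 32635912 to 32650488, plus strand), had 42.9, 43.7 and 43.2 CPM in control static and 80.0, 78.8 and 76.2 CPM in DKO static libraries. In FFSS cells it had 40.5, 32.7 and 28.1 CPM in control and 80.0, 79.4 and 77.8 CPM in DKO libraries. All 6 DKO libraries were higher than all 6 control libraries. Its log2 fold change was 0.86 ± 0.10 (SE, adjusted p = 3.72e-06) in static cells and 1.23 ± 0.10 (adjusted p = 1.28e-07) in FFSS cells. Mrpl47, a mitochondrial ribosomal protein gene whose exons overlap 7.81% of those of Ndufb5, was also higher in DKO cells, by 0.81 ± 0.08 and 1.09 ± 0.08 (adjusted p = 8.76e-07 and 4.80e-08), with 13.9 to 16.1 CPM in control and 25.8 to 32.2 CPM in DKO libraries. Reads in stretches that the 2 genes share could not be assigned to either, because strand was not used in counting.

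Ndufb2, another membrane-arm subunit, had 10.2, 8.12 and 9.73 CPM in control static and 17.98, 17.9 and 15.3 CPM in DKO static libraries, a log2 difference of 0.87 ± 0.11 (adjusted p = 1.64e-05). Its exons overlap those of Adck2, Braf and Gm16272 over 7.94% of their length. Ndufa1, which is needed to assemble the complex, rose by 0.56 ± 0.10 in static and 0.86 ± 0.10 in FFSS cells. The assembly factor Ndufaf3 was lower and past the threshold in static DKO cells, with a log2 difference of −0.67 (14.7 ± 0.660 to 9.22 ± 0.681 CPM, SD, n = 3). Among the core subunits of the complex, Ndufs8 was higher in DKO cells under FFSS (0.29 ± 0.09, adjusted p = 0.00955). No alternative is given for Ndufs8, and with library totals alone only 1 core subunit of all complexes was higher in that comparison. Ndufs7, which carries the last iron-sulfur cluster of complex I, fell by 0.53 ± 0.10 in static DKO cells (75.8 ± 1.68 to 52.3 ± 2.95 CPM, SD, n = 3, adjusted p = 0.000425). Ndufv1, which binds NADH, fell by 0.18 ± 0.05 (adjusted p = 0.0100), a call lost with the covariate (−0.12, adjusted p = 0.0744). Ndufs1, the largest iron-sulfur subunit of the complex, did not pass in either comparison of genotypes, with a static log2 difference of 0.11 (95% interval −0.01 to 0.24), though it passed in static cells in the 6 libraries alone (0.11) and with the covariate (0.20), and in FFSS cells with library totals (−0.20).

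Complex II, which joins the chain to the citric acid cycle and is wholly nuclear-encoded, had 2 of 6 members lower and none higher in static DKO cells (27.2% and 27% of all genes). Sdha, the flavoprotein that oxidises succinate, had 134, 135 and 134 CPM in control static and 116, 118 and 112 CPM in DKO static libraries. This log2 difference of −0.22 ± 0.06 (adjusted p = 0.00702) was −0.26 ± 0.06 in FFSS cells (adjusted p = 0.00217). Sdhd, a membrane anchor, was lower by −0.26 ± 0.08 in static DKO cells (adjusted p = 0.0106), but not past the threshold with the share outside genes as a covariate (−0.12, adjusted p = 0.126). Sdhc, the other anchor, was higher by 0.30 ± 0.08 in DKO FFSS cells (adjusted p = 0.00723), but not past it with library totals alone (0.11, adjusted p = 0.179). Sdhb, the iron-sulfur subunit, did not pass in either (0.02 and −0.12), but passed in FFSS cells with library totals (−0.31) and with the covariate (−0.12).

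In complex III, 3 of 8 members were lower and none higher in static DKO cells (27.2% and 27% of all genes), among them 2 core subunits and Uqcrb, of which 61.5% was copied sequence. Uqcrfs1, the Rieske iron-sulfur protein, had 82.0, 80.7 and 84.2 CPM in control static, against 54.9, 55.5 and 56.6 in DKO static, and 74.4, 69.7 and 65.6 in control FFSS and 54.8, 53.4 and 55.5 CPM in DKO FFSS libraries. The genotypes did not overlap in either condition. The log2 difference was −0.56 ± 0.06 in static (adjusted p = 1.60e-06) and −0.36 ± 0.06 in FFSS cells (adjusted p = 0.000114). Uqcrc1, a large matrix-facing subunit, was lower by −0.29 ± 0.05 and −0.40 ± 0.05 (adjusted p = 0.000121 and 5.84e-06), and its partner Uqcrc2 did not pass (0.08 and 0.11) except in static cells with the covariate (0.18). In DKO FFSS cells 4 members of the complex were higher, the small subunits Uqcr10, Uqcr11, Uqcrh and Uqcrq, and 2 were lower (27% and 29.6% of all genes). No alternative is given for these 4, and library totals alone cut the other subunits of all complexes called higher from 30 to 14.

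In complex IV, whose catalytic core is encoded by the mitochondrial genome and was not counted here, 2 of 16 tested members were higher and 4 lower in static DKO cells (27% and 27.2% of all genes). Cox6a1, the widespread form of subunit 6a, had 275, 292 and 298 CPM in control static and 404, 359 and 389 CPM in DKO static libraries. It rose by 0.42 ± 0.08 (adjusted p = 0.000467), and by 0.69 ± 0.08 in FFSS cells (adjusted p = 4.90e-06). Cox4i1, Cox5a and Cox5b, the largest nuclear subunits, did not pass between the genotypes, with differences between −0.12 and 0.17. Cox4i1 passed in static cells with library totals (−0.20) and in the 6 libraries alone (−0.12) and in FFSS cells with the covariate (0.16), and Cox5a and Cox5b passed in FFSS cells with library totals (−0.24 and −0.26).

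In complex V, 7 of 17 members were higher and 4 lower in static DKO cells (27% and 27.2% of all genes), and the subunits of the catalytic head were split. Atp5a1, the alpha subunit, had 504, 525 and 529 CPM in control static and 654, 650 and 622 CPM in DKO static libraries, and rose by 0.31 ± 0.06 (adjusted p = 0.000663). Atp5b, the beta subunit that pairs with it, did not pass (−0.07, 95% interval −0.18 to 0.04) except with library totals (−0.15). Atp5c1, the gamma subunit of the rotor shaft, fell by 0.49 ± 0.07 (294.9 ± 4.71 to 210.5 ± 2.40 CPM, SD, n = 3, adjusted p = 6.62e-05), and Atp5d, the delta subunit, fell by 0.48 ± 0.09 (adjusted p = 0.000316). Atp5e, the epsilon subunit of the same shaft, rose by 0.46 ± 0.09 in static and 0.89 ± 0.09 in FFSS cells (adjusted p = 0.000390 and 9.88e-07). Atp5h, a subunit of the peripheral stalk, had 38.0, 41.4 and 43.2 CPM in control static and 64.3, 63.9 and 66.1 CPM in DKO static libraries, a rise of 0.66 ± 0.08 (adjusted p = 6.44e-06). Of its transcript, 67.9% of 50-base stretches have an exact copy elsewhere in the mm9 genome.

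**Figure D3:**
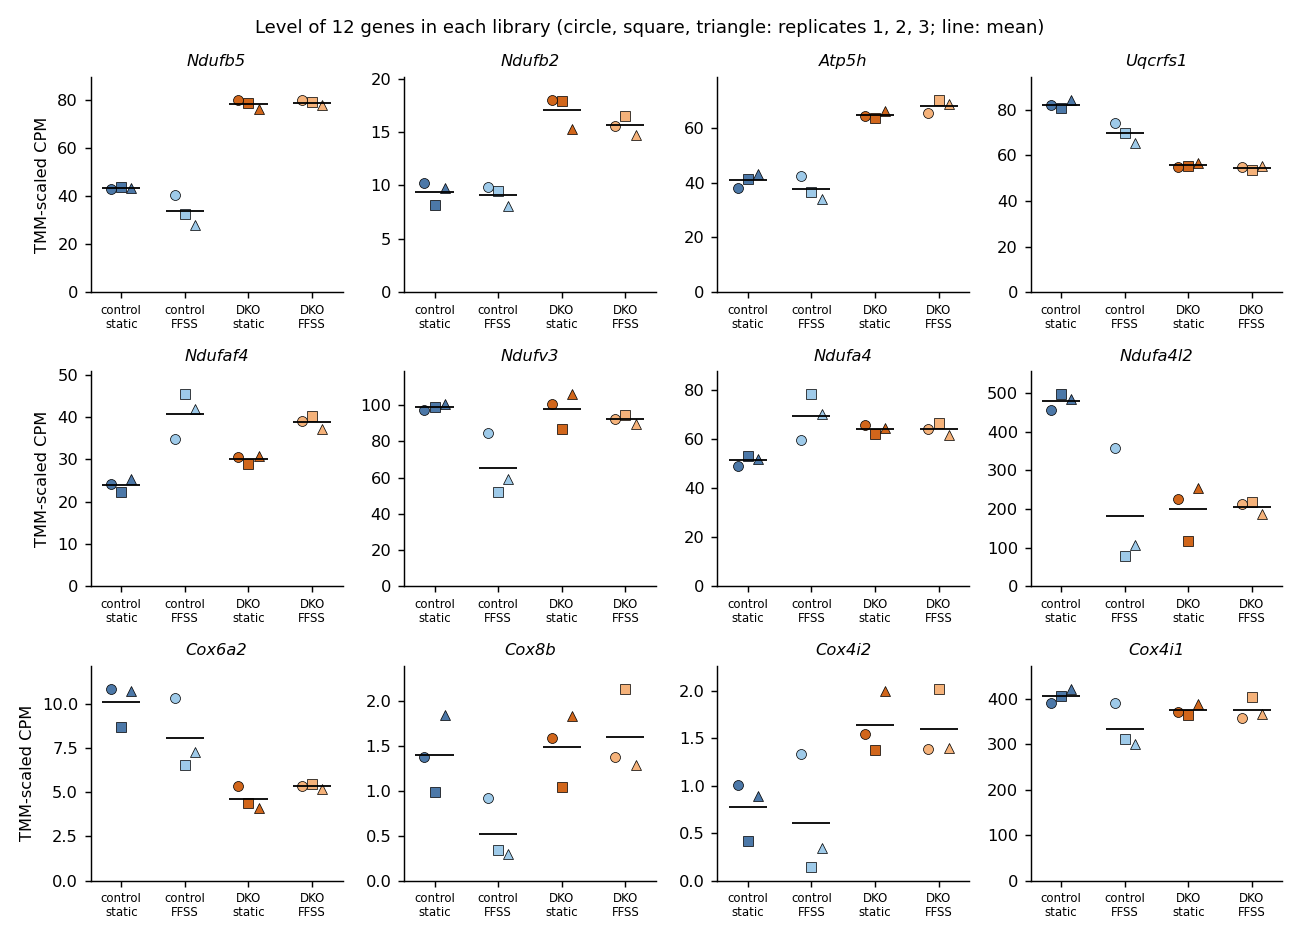
TMM-scaled CPM (vertical axes, from 0) of 12 members in each library; symbols mark replicates 1 to 3 and lines the means (n = 3). Ndufb5, Ndufb2 and Atp5h are higher and Uqcrfs1 is lower in all DKO libraries than in any control library. In control FFSS cells, replicate 1 lies nearer to the static libraries than replicates 2 and 3 for Ndufaf4, Ndufv3, Ndufa4 and Ndufa4l2.

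Isoforms of a subunit that are known from particular tissues were mostly low. Cox6a2, the heart and skeletal muscle form of subunit 6a, had 10.9, 8.70 and 10.7 CPM in control static and 5.39, 4.39 and 4.11 CPM in DKO static libraries, a log2 difference of −1.12 ± 0.17 (adjusted p = 7.44e-05). Per kilobase, its ratio to Cox6a1 was 0.0259 to 0.0344 in control static and 0.00916 to 0.0116 in DKO static libraries. Its exons overlap those of Itgad over 10% of their length. Cox4i2, the form of subunit 4 that low oxygen induces in lung, had 1.00, 0.416 and 0.894 CPM in control static and 1.54, 1.37 and 2.00 CPM in DKO static libraries, and did not pass there (1.08 ± 0.50, adjusted p = 0.0862), though it did in the 6 libraries alone (1.08, adjusted p = 0.00191) and with the covariate (2.27, adjusted p = 7.55e-05). In FFSS cells it had 1.33, 0.146 and 0.346 CPM in control and 1.38, 2.02 and 1.40 CPM in DKO libraries, and passed (1.40 ± 0.52, adjusted p = 0.0355), though not with library totals, with no filter, with the 6 libraries of the comparison alone, or without control FFSS replicate 2 or 3 or any 1 DKO FFSS library (adjusted p up to 0.117). The ratio of Cox4i2 to Cox4i1 per kilobase was at most 0.00481 in every library.

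Ndufa4l2, a paralogue of Ndufa4 that hypoxia induces, was the most abundant of these isoforms. It had 456, 496 and 484 CPM in control static libraries, which FFSS libraries of the same line did not reach (358, 78.9 and 106 CPM). DKO libraries had 227, 116 and 255 CPM without flow and 213, 219 and 186 CPM with it. No control FFSS or DKO library reached the static control level. Neither difference from control static passed, for FFSS (−1.41 ± 0.53, adjusted p = 0.0683) or for DKO (−1.26 ± 0.53, adjusted p = 0.0725), and both passed with DESeq2 (adjusted p = 0.0307 and 0.0406) and without control FFSS replicate 1 (adjusted p = 0.000447 and 0.00367). The FFSS difference also passed with the replicate number as a block, and the DKO difference with library totals, in its 6 libraries alone and without control FFSS replicate 2. Ndufa4 itself had 49.1, 53.0 and 52.1 CPM in control static and 59.7, 78.4 and 70.4 CPM in control FFSS libraries, a rise of 0.43 ± 0.08 (adjusted p = 0.00177). Its product is now counted with complex IV, but by their symbols both genes are in the complex I counts and sums here. Per kilobase, the ratio of Ndufa4l2 to Ndufa4 was 4.76 to 4.80 in control static libraries, 3.07, 0.516 and 0.771 in control FFSS replicates 1 to 3, 1.76, 0.960 and 2.02 in DKO static and 1.54 to 1.70 in DKO FFSS libraries. The paralogue thus exceeded Ndufa4 in 9 of 12 libraries.

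The second comparison asked what 3 h of FFSS did to these genes. In control cells 4 members rose and 17 fell, beside backgrounds of 17.7% and 18.1%, and the median log2 fold change was −0.11 against 0.01 over all genes. Of the 89, 64 had a negative and 25 a positive fold change. The counts moved with single libraries and with the fit: 50 members fell without control FFSS replicate 1, and 10 without replicate 2 and 10 without replicate 3, and 11 without control static replicate 3. With the share of reads outside genes as a covariate none of them fell at this threshold and 5 rose, and with library totals alone 14 rose and 9 fell, where the median of all genes moved to 0.13. Relative to the median of all genes, the members' median was −0.12 with either scaling, a value that a change of scaling could hardly alter. It turned to 0.09 with the covariate. In the 6 control libraries fitted alone, 2 rose and 2 fell.

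By library, the median difference of the members from the static mean was 0.03 in replicate 1, −0.14 in replicate 2 and −0.25 in replicate 3 (log2). Complex IV members had the lowest medians of the 5 complexes in replicates 2 and 3 (−0.33 and −0.36), and all 16 tested were below the static mean in replicate 3. In complex I the fall of the sum came in large part from Ndufa4l2, since without it the sum was 2648 to 2744 CPM in control static and 2750, 2401 and 2296 CPM in control FFSS libraries, against 3105 to 3238 and 3108, 2480 and 2401 CPM with it.

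The 4 members that rose held no core subunit, although with library totals alone 3 core subunits rose (Uqcrc1, Ndufs1 and Sdhb, by 0.22, 0.20 and 0.19). Ndufaf4, an assembly factor of complex I, had 24.2, 22.3 and 25.3 CPM in control static and 34.8, 45.3 and 41.9 CPM in control FFSS libraries. All 3 FFSS libraries were above all static ones, and the log2 fold change was 0.77 ± 0.09 (adjusted p = 5.70e-05). Sdhaf2, which attaches the flavin cofactor to Sdha, rose by 0.23 ± 0.07 (adjusted p = 0.0244), but did not pass with no filter or in the 6 control libraries alone (adjusted p = 0.0531 and 0.114). Ndufa4 (above) and Atp5sl, which is not a subunit of the synthase (0.25 ± 0.08, adjusted p = 0.0296), were the others. Ndufa4 did not pass with the share of reads outside genes as a covariate (0.20, adjusted p = 0.192), and Atp5sl did not pass with it, with no filter or in the 6 control libraries alone (adjusted p = 0.187, 0.0881 and 0.102). Of the 9 assembly factors and non-subunits, 3 rose and 1 fell, and of the 80 subunits and isoforms 1 rose and 16 fell. Among all genes tested 17.7% rose and 18.1% fell, and the difference between these groups was not tested.

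Among the members that fell, Ndufv3, a small subunit beside the NADH site, had 97.4, 98.8 and 100.4 CPM in control static and 84.4, 52.2 and 59.4 CPM in control FFSS libraries (−0.60 ± 0.14, adjusted p = 0.00697). Cox7a2l, which is known to join complexes III and IV, had 48.4, 50.3 and 48.7 CPM in static and 43.1, 29.5 and 26.9 CPM in FFSS libraries (−0.57 ± 0.13, adjusted p = 0.00524). Cox8b, a muscle and brown fat form of subunit 8, had only 1.37, 0.989 and 1.84 CPM in static and 0.924, 0.342 and 0.297 CPM in FFSS libraries, and was the 1 member past a 2-fold change (−1.43 ± 0.42, adjusted p = 0.0174, against 5.93% of all genes). In each of these the FFSS libraries lay below the static ones. None of these 3 passed with the share of reads outside genes as a covariate (adjusted p from 0.407 to 0.767), and Cox7a2l and Cox8b did not pass in the 6 control libraries alone. Cox8b also lost the call without control static replicate 3 or control FFSS replicate 2 or 3 (adjusted p up to 0.0787). Cox8b in DKO FFSS cells had 1.38, 2.14 and 1.29 CPM, 1.61 ± 0.41 above control FFSS cells (adjusted p = 0.00407). With Ndufb5 and Cox4i2 it was 1 of 3 members past a 2-fold change in that comparison, against 17.2% of all genes.

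In DKO cells 0 members passed under FFSS with edgeR (5 at an unadjusted p under 0.05, where the share of all genes was 13.5%), and 0.376% of all genes tested rose and 0.497% fell. The median of the members was 0.01, equal numbers of subunits and isoforms were positive and negative (40 and 40), and the sums above overlapped. The smallest adjusted p was that of Ndufaf4, which had 30.4, 29.0 and 30.7 CPM in DKO static and 39.0, 40.1 and 37.1 CPM in DKO FFSS libraries. Its FFSS libraries were all above the static ones (0.37 ± 0.09, adjusted p = 0.0752). It passed with DESeq2 (1 member, adjusted p = 0.0173), with no filter (adjusted p = 0.0384), in the 6 DKO libraries alone (adjusted p = 0.000178), with the share outside genes as a covariate (adjusted p = 0.0163) and without control FFSS replicate 2 (adjusted p = 0.0382). Ndufaf4 was the member with the highest fold change in control cells as well, and Sdhaf2 had a like value in both genotypes (0.23 in control and 0.22 in DKO cells), the latter past the threshold in the 6 DKO libraries alone (adjusted p = 0.00788) and with the covariate (adjusted p = 0.00552).

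The effect of FFSS was compared between the genotypes by the interaction (the log2 change in DKO cells less that in control cells). No member passed with edgeR (0 of 89, with 20 at an unadjusted p under 0.05, against 23.8% of all genes), beside backgrounds of 2.28% positive and 1.68% negative. The interaction was positive for 65 members and negative for 24, with a median of 0.13 against −0.02 over all genes, and −0.01 with the covariate. The smallest adjusted p was that of Ndufa4 (−0.43 ± 0.12, adjusted p = 0.0592), and that of Atp5e was 0.0675 (0.43 ± 0.12). Both passed with DESeq2 (adjusted p = 0.0266 and 0.0218). Without control FFSS replicate 1, 45 members had a positive and 2 a negative interaction past the threshold.

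Other genes of the pathway, taken from fixed lists, moved in both directions. Among 12 tested regulators, Ppargc1a, a coactivator of mitochondrial biogenesis, was higher in DKO cells by 2.98 in static and 1.92 in FFSS cells (adjusted p = 1.45e-06 and 4.50e-05), from a mean of 0.560 CPM in control static to 4.47 CPM in DKO static cells. Nrf1, Gabpa and Yy1, which bind promoter motifs above, were lower (−0.35, −0.43 and −0.35 in static cells). Gabpb1, the partner of Gabpa, and Tfb1m were higher (0.38 and 0.80). In all, 3 regulators were higher and 3 lower in static DKO cells (27% and 27.2% of all genes). Members with the NRF1 motif had a median difference of 0.09 in static DKO cells (18 members) and those without it 0.01 (53), and for the ETS motif the medians were 0.06 (19) and −0.001 (52). In DKO FFSS cells the order for NRF1 turned, with 0.07 and 0.14, and for ETS the medians were 0.23 and 0.07. For YY1 they were 0.07 (10 members) and 0.02 (61) in static and 0.10 and 0.11 in FFSS cells. The 8 members with the ERR motif had medians of 0.28 in static and 0.40 in FFSS cells, against 0.00 and 0.09 for the 63 without it. These 8 include Atp5l, Ndufs5 and Ndufb4, of which 89.4%, 80% and 41.3% was copied sequence. Members with the HIF core had −0.03 against 0.06 in static and 0.17 against 0.10 in FFSS cells. Esrra, which encodes an ERR, did not pass in static DKO cells (0.01, adjusted p = 0.943) and was higher in DKO FFSS cells (0.31, adjusted p = 0.0241). The differences by motif, and any link to the regulators, were not tested. Under FFSS in control cells, where 17.7% of all genes rose and 18.1% fell, 4 of the 12 regulators rose (Pprc1, Tfam, Tfb2m and Polrmt, the last 3 acting on mitochondrial DNA) and Yy1 fell. For Tfam the interaction also passed (−0.37, adjusted p = 0.0472). No alternative is given for the regulators, or for genes of the lists below that are not members. How far their calls hold in other fits or without single libraries is therefore not shown.

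Of 25 further assembly factors and electron carriers, 10 were higher and 3 lower in static DKO cells (27% and 27.2% of all genes tested), led by Cox16 (1.02, adjusted p = 8.88e-05), which acts in the assembly of complex IV. In control cells under FFSS 5 rose and 1 fell (17.7% and 18.1% of all genes). Foxred1 (0.72, adjusted p = 0.000404) and Acad9 (0.47, adjusted p = 0.000933), like Ndufaf4 assembly factors of complex I, were among those that rose. Tmem126b, another of them, fell (−0.26, adjusted p = 0.0386), as did the member Ndufaf3 (−0.40 ± 0.11, adjusted p = 0.0115). Acad9 had an interaction of −0.50 (adjusted p = 0.0295), for which no alternative is given. Of 7 mitochondrial genes linked to hypoxia, Ndufa4l2 and Cox4i2 are members already given above. With FFSS in control cells 4 of the 7 fell (Pdk1, Bnip3, Bnip3l and Higd1a) and none rose, where 18.1% and 17.7% of all genes did. Bnip3, a mitophagy receptor, fell in DKO cells also (−1.61, adjusted p = 0.0316). In static DKO cells 4 of the 7 were lower and none higher (27.2% and 27% of all genes). Of 14 citric acid cycle genes 3 were higher and 6 lower in static DKO cells, and of 76 mitochondrial ribosomal protein genes 13 were higher and 27 lower, to be read against the same 27% and 27.2%.

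How well a member can be counted depends on copies of its sequence, because reads that align to several places were left out. For 45 members, some 50-base stretch of the transcript had an exact copy elsewhere in the mm9 genome, and for 19 members more than 20% had one. Atp5g1, Atp5g2 and Atp5g3 encode the same mature subunit of the ATP synthase ring. Atp5g2, whose transcript was copied over 100% of its length, had 0.924 to 2.25 CPM, while Atp5g3 had 210.3 to 260.5 CPM and Atp5g1 (86.8% copied) 12.5 to 20.04 CPM, so the balance of the 3 cannot be read from these counts. Members with more than 60% copied (8) had a median level of 25.8 CPM per kb against 77.5 for those with at most 20% (74). Fold changes were not ordered by copying, with Spearman correlations between −0.01 and 0.09 over the 89 members in the 5 comparisons. Among the 70 tested members with at most 20% copied, 20 were higher and 14 lower in static DKO cells (27% and 27.2% of all genes). In DKO FFSS cells 29 of them were higher and 7 lower (27% and 29.6% of all genes).

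**Figure D4:**
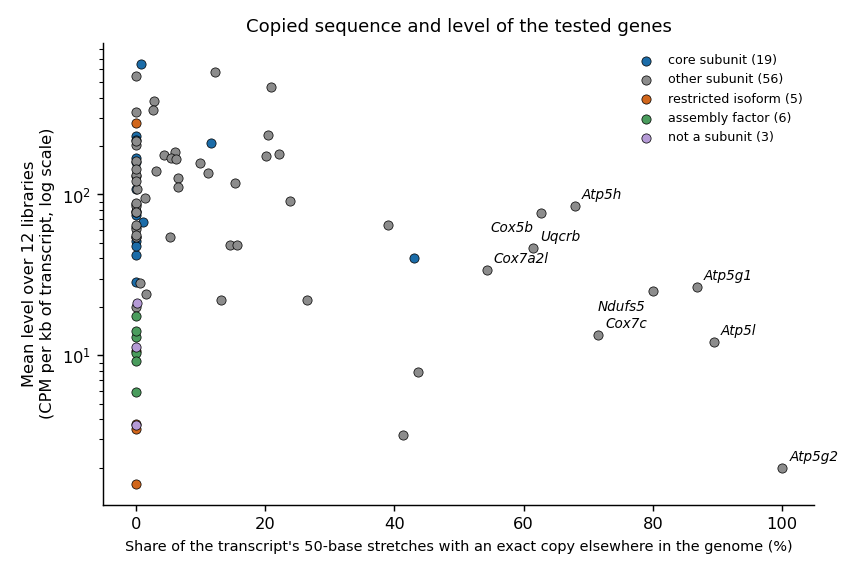
Mean level over 12 libraries (CPM per kb of transcript, logarithmic vertical axis) against the share of each transcript's 50-base stretches with an exact copy elsewhere in the genome (percent), for the 89 tested members by role. Members with most of their sequence copied, named, lie below 100 CPM per kb, and Atp5g2 is lowest among them at 1.98.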

How the data were processed

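RNA was sequenced from 12 libraries. As the study's methods state, the authors obtained 50-base single-end reads (BGISEQ). Alignment was to mm9 (STAR, Ensembl annotation), and reads were counted per gene with HTSeq without regard to strand. The deposited values are raw counts per Ensembl ID, and reads aligning to several places were not counted. Mitochondrially encoded genes were not among the IDs.

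Here, counts of all 12 libraries were fitted as 4 groups with edgeR 4.0.16 (R 4.3.3, robust quasi-likelihood, TMM factors). Following the study, genes with 0 counts in 2 or more libraries were removed. Differences passed at a Benjamini-Hochberg adjusted p under 0.05 over all 14904 genes, and a further count required more than a 2-fold change. CPM are counts scaled to the TMM-adjusted library totals, log2 fold changes carry standard errors, and 95% intervals are 1.96 standard errors to each side. Levels per kb use the transcript with the longest coding sequence. The fit was tested on simulated data, of which no result is given here.

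Named were members past both limits, the 3 highest and lowest of those past the threshold in each comparison, fixed core subunits and isoforms (1 of the core subunits is not reported here), every member removed by the filter, and listed genes past the threshold. Ndufa1, Ndufs7, Atp5d, the small complex III subunits and Mrpl47 were added after their values were seen. Ndufs8, Atp5e and the value of Ndufaf3 under FFSS are also given outside these rules. The members and lists were chosen with earlier results of these data known. Alternatives were RLE factors, library totals, other filters, 6 libraries alone, DESeq2 1.42.0, the replicate number as a block, the share of reads outside genes as a covariate, and leaving out each library. Intervals rest on the fitted spread between libraries, and the floors cover counting error only.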

Additional observations from a re-analysis of the deposited data

Results flagged for a closer look

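A signal outside the counts per gene moved with treatment. Reads that fell outside annotated genes, which no comparison of the respiratory chain genes uses as an outcome, made up 8.37% ± 2.20 (SD, n = 3) of reads in control FFSS against 5.14% ± 0.0616 in control static libraries, and 8.19% ± 0.323 in DKO FFSS against 7.11% ± 0.0363 in DKO static libraries. In both genotypes every FFSS library was above every static one. The lowest control FFSS value, 5.87% in replicate 1, was in the library whose respiratory chain genes lay nearest to the static level.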

How the results depend on the processing

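Of 3221 values of named members under 20 alternatives, 3053 kept their direction and side of the threshold, 74 lost the call, 91 gained it (38 of them without control FFSS replicate 1) and 3 reversed. Ndufa1, Ndufs7, Ndufs8, Atp5d, Atp5e and the small complex III subunits are not among these values, nor are Mrpl47 and the listed genes that are not members. With library totals alone, 14 members rose and 9 fell under FFSS in control cells, 16 were higher and 31 lower in DKO FFSS cells, 1 had a negative interaction, 2 passed the fold limit in static DKO cells, and Atp5g3 reversed in DKO FFSS cells (−0.15). CPM from library totals moved the static DKO to control log2 ratio of summed CPM to −0.11 for all members and to −0.17, −0.11, −0.14, −0.0712 and −0.0851 for complexes I to V. With no filter, 2 rose under FFSS in control cells, 1 in DKO cells, and the interaction had 1 positive and 1 negative member. In the 6 libraries of each comparison, 2 rose and 2 fell with FFSS in control cells (0 past the fold limit), 2 rose in DKO cells, 3 passed the fold limit in static DKO cells and 5 were lower in DKO FFSS cells. DESeq2 gave 2 past the fold limit under FFSS in control cells and 2 in static DKO cells, 1 higher under FFSS in DKO cells, and 1 positive and 1 negative interaction. With the share outside genes as a covariate, 0 fell with FFSS in control cells (0 past the fold limit), 8 rose in DKO cells, 39 were higher and 11 lower in static DKO cells (2 past the fold limit) and 15 were lower in DKO FFSS cells, and Atp5c1 (0.0249) and Cox4i1 (0.000299) reversed under FFSS in control cells. The cause of these differences was not tested.

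Same-numbered libraries did not deviate together (mean correlation 0.0023 over 18 pairs), so the numbers were not taken as pairs. The fit with the replicate number as a block gave 2 members past the fold limit under FFSS in control cells.

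Leaving out 1 library at a time gave 2 to 5 higher, 10 to 50 lower and 0 to 3 past the fold limit for FFSS in control cells, and 0 to 2 higher for FFSS in DKO cells. For the interaction it gave 0 to 45 positive, 0 to 2 negative and 0 to 3 past the fold limit. Static DKO cells had 20 to 33 higher, 15 to 24 lower and 1 to 3 past the fold limit, and DKO FFSS cells 29 to 47, 6 to 13 and 2 to 6. The highest count for FFSS in control cells that fell (50), the positive interactions (45) and 6 past the fold limit in DKO FFSS cells came without control FFSS replicate 1. At 17585225 to 19174118 assigned reads, members near 1 CPM such as Cox8b and Cox4i2 rest on few counts.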
